A study of Homo sapiens with 9 samples.

Results

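The genes BRD2 and BRD3 of the BET family, the elongation factor genes HEXIM1, CDK9 and CCNT1, and the marker genes MYC and SERPINI1 were followed in A375 melanoma cells treated with the bromodomain inhibitor TP-472. The 7 genes were listed by name, as readouts of BET activity outside the intended targets of TP-472, by a rule that used no threshold on a measured value but with earlier results of these data known. All 7 were found among the 26475 gene symbols of the expression table, and all 7 were among the 16417 genes that passed the filter on low counts and were tested. A375 is an established human melanoma line that carries mutant BRAF. TP-472 was designed to occupy the bromodomains of BRD9 and BRD7, which are not BET proteins. The RNA-seq data covered 9 libraries, namely 3 from cells given DMSO, the solvent of the drug, 3 from cells given 5 µM TP-472 and 3 from cells given 10 µM TP-472. Exposure lasted 24 h in every group, and all groups were grown in the same serum-supplemented medium. A single cell line and a single time were sampled, and the series names the libraries of a group biological replicates, so the p-values measure the spread between those cultures. No group received a BET inhibitor.

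BET proteins carry paired bromodomains that bind acetylated lysines on histone tails and bring elongation factors to chromatin. One of these factors is P-TEFb, the kinase CDK9 with its partner cyclin T1 (CCNT1), which releases paused RNA polymerase II. HEXIM1 holds P-TEFb inactive on the small nuclear RNA 7SK, and its transcript is a widely used marker that rises when BET proteins are inhibited in many cell types. SERPINI1, the protease inhibitor neuroserpin, is used in the same way, and MYC, a transcription factor of growth and proliferation, is the gene best known for falling under BET inhibitors.

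The libraries held 42483091 to 51298130 counts each. The library labelled 10 µM replicate 1 stood apart: the SD of its log2 deviations from the mean of its group was 0.637 over the genes tested, against 0.251 to 0.485 in the other 8. Without it in the fit, the share of all genes that rose went from 4.40% to 16.5% at 5 µM and from 16.4% to 23.0% at 10 µM, and the share that fell from 5.81% to 17.6% and from 18.0% to 25.8%. Calls of the 7 genes, and counts of related genes against DMSO, that change by over 1.5 times without it are given below both ways. The share of counts from ribosomal RNA genes ranged from 8.79% to 10.9% in DMSO, from 10.6% to 16.6% at 5 µM and from 8.20% to 19.9% at 10 µM. Markers of the neural crest and melanoma lineage were present, with SOX10 at a mean of 416.5 CPM (counts scaled to a common library size) and CSPG4 at 704.5 CPM in DMSO. The pigment enzyme gene TYR had 0 counts in all 9 libraries, and DCT had 1 count in all of them together. The T cell marker CD3E had 0 counts in every library. The summed level of the 10 melanocyte lineage markers was 1156 to 1172 CPM in DMSO, between 882 and 918.5 CPM at 5 µM and 622 to 709 CPM at 10 µM. CSPG4, a surface proteoglycan, made up most of that difference, with means of 704.5, 445.9 and 228.8 CPM in the same order, and of the 8 markers tested 1 fell at 5 µM and 2 fell at 10 µM. The lineage transcription factor genes SOX10, at 416.5, 412.9 and 391 CPM, and MITF, at 31.9, 29.8 and 29.1 CPM, did not pass at either dose, although SOX10 passed at 10 µM when 10 µM replicate 1 was left out (-0.13, adjusted p = 0.0149). The 4 markers of dedifferentiated melanoma summed to 677 to 692 CPM in DMSO, between 516 and 523 CPM at 5 µM and 467 to 562 CPM at 10 µM, and 3 of the 4, AXL, NGFR and SOX9, fell at each dose. The part of these markers in the results below was not tested. The 5 keratinocyte markers summed to 49.4 to 56.7 CPM in DMSO, between 62.2 and 65.9 CPM at 5 µM and 67.1 to 97.7 CPM at 10 µM. KRT10 made up most of that sum, with means of 44.4, 56.0 and 70.1 CPM and a rise that passed at 10 µM (and at 5 µM too without 10 µM replicate 1), while the basal keratin genes KRT14, at 6.92, 7.15 and 7.25 CPM, and KRT5, at 0.874, 0.456 and 1.06 CPM, did not pass. The 5 fibroblast markers summed to 16.2 to 17.2, 10.1 to 11.2 and 6.87 to 8.82 CPM in the same order. COL1A1, with means of 10.2, 4.11 and 3.87 CPM, and PDGFRA, with 3.31, 2.12 and 0.977 CPM, made up that difference. LUM, at 2.41, 3.71 and 2.27 CPM, and DCN, at 0.661, 0.776 and 0.673 CPM, did not follow it. The 5 immune markers stayed between 5.17 and 7.17 CPM and the 3 endothelial markers between 1.84 and 3.70 CPM over all libraries.

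Levels of different genes were compared per length, as CPM divided by exon length in kb (RPKM). That length counts every base in any annotated exon of a gene, used or not in these cells, and the order depends on it. In DMSO the order of the levels was HEXIM1 at 44.7 ± 1.25 RPKM (SD, n = 3), CDK9 at 26.3 ± 0.727, BRD2 at 20.1 ± 0.588, CCNT1 at 12.9 ± 0.548, BRD3 at 8.51 ± 0.10, MYC at 4.81 ± 0.198 and SERPINI1 at 0.943 ± 0.122. No neighbours in this order overlapped between their DMSO libraries. By this measure the inhibitor HEXIM1 stood above both subunits of the kinase it holds, and SERPINI1 stood lowest, with 82 to 391 counts per library. All other values below are CPM, scaled to library size by the trimmed mean of M values (TMM), and fold changes are log2 ratios of a gene with itself.

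**Figure D1:**
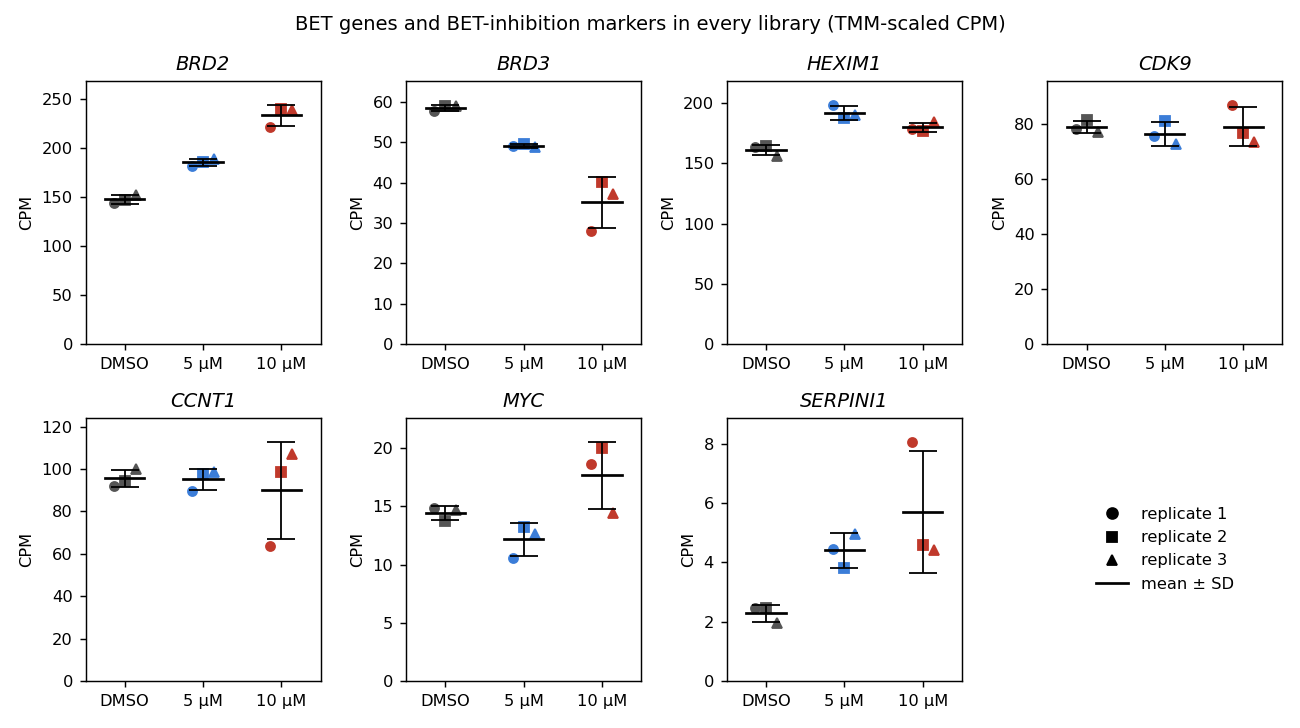
TMM-scaled CPM (y axis, linear from 0, a separate scale for each gene) of the 7 genes in DMSO, 5 µM and 10 µM TP-472 (x axis). Symbols are libraries, horizontal bars the mean and vertical bars the SD of 3 libraries. BRD2 climbs from 148 to 185.5 to 233 CPM and BRD3 steps down from 58.5 to 49.1 to 35.2 CPM, CDK9 lies level, and the 10 µM replicate 1 library is the lowest for CCNT1 and BRD3 and the highest for SERPINI1.

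Against DMSO, 5 µM TP-472 was followed by higher transcript levels of BRD2, HEXIM1 and SERPINI1, and 10 µM by higher BRD2 and SERPINI1 and lower BRD3. CDK9, CCNT1 and MYC did not pass the test at either dose. A gene passed where edgeR's quasi-likelihood test gave a Benjamini-Hochberg adjusted p under 0.05 over all genes tested. At 5 µM 3 of the 7 genes rose, where 4.40% of all genes tested did, with 3 by DESeq2 and 2 by limma-voom. None of the 7 fell at 5 µM by edgeR's quasi-likelihood test, where 5.81% of all genes did, and 0 of the 7 were lower at an unadjusted p under 0.05, with 0 also by DESeq2 and 0 by limma-voom. At 10 µM 2 of the 7 rose, against 16.4% of all genes, and 1 fell, against 18.0%. With a fold change of at least 1.5 as a further condition, 1 gene rose (2.14% of all genes) and 0 fell (2.72%) at 5 µM, where limma-voom and DESeq2 had 0 lower without that condition, and 2 rose and 1 fell at 10 µM (8.57% and 10.5% of all genes). Libraries of 5 µM and DMSO did not overlap for 5 of the 7 genes, where 48.7% of all genes tested did not overlap either. The same held for 4 of the 7 genes at 10 µM, where the background was 49.3%. An exact permutation test of 3 libraries against 3 cannot give a two-sided p below 0.1 for a single gene, and the adjusted p-values therefore rest on a spread estimated with the help of all genes. In bulk RNA, fewer cells of a kind and less RNA per cell cannot be told apart.

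**Figure D2:**
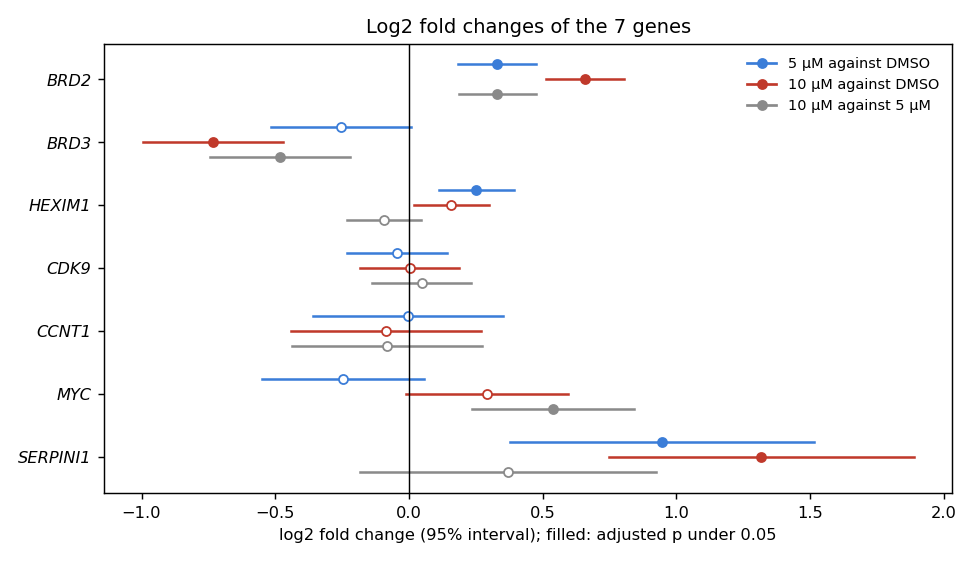
Log2 fold changes (x axis) of the 7 genes (y axis) for each dose against DMSO and for the higher against the lower dose. Points are edgeR estimates, lines their 95% intervals, and filled points have an adjusted p under 0.05. BRD2 lies to the right of 0 in all 3 comparisons, BRD3 to the left, and the CDK9 and CCNT1 intervals span 0 in each.

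The sequences just before RefSeq start sites are shown for the 4 of the 7 genes that passed the test against DMSO at a dose. The windows of genes that rose and of the one that fell can thus be read side by side. Each holds the 100 bases before the first start site listed by RefSeq on GRCh38.p14, 5′ to 3′ on the strand of the gene, and capitals mark a TATA box (TATAAA) or a GC box (GGGCGG). The windows are chr6:32968494-32968593 (plus) for BRD2, chr9:134068027-134068126 (minus) for BRD3, chr17:45148375-45148474 (plus) for HEXIM1 and chr3:167735621-167735720 (plus) for SERPINI1. By the GENCODE 29 coordinates used for the genes below, BRD3 starts at 134068535 and SERPINI1 at 167735243. Their windows thus lie inside the gene by that annotation, and only those of BRD2 and HEXIM1 lie before it.
BRD2: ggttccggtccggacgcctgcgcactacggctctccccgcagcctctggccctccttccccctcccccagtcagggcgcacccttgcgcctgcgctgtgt
BRD3: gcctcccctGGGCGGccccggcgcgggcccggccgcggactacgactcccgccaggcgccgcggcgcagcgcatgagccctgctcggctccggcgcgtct
HEXIM1: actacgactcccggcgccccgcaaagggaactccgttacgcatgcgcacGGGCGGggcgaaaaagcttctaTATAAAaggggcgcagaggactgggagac
SERPINI1: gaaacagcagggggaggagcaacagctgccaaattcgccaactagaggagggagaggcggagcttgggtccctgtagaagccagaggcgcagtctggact

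HEXIM1 alone of the 4 windows held a TATA box, at 29 bases before the start, together with a GC box at 51 bases, and BRD3 held a GC box at 91 bases. Both strands were searched, and 4.99% of the 35116 RefSeq promoters of the same length held TATAAA and 31.3% held GGGCGG. The letters CCAAT (18.1% of promoters) and CACGTG, the E-box bound by MYC (3.43%), were in none of the 4 windows. The windows were 73.0% G and C for BRD2, 83.0% for BRD3, 61.0% for HEXIM1 and 60.0% for SERPINI1, beside a median of 60.0% over all promoters. BRD2 has 4 RefSeq start sites, of which the first is shown. These matches describe the letters of the windows only.

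BRD2, a BET protein expressed in most tissues that binds acetylated histone H4, lies at chr6:32968660-32981505 on the plus strand of GRCh38 (ENSG00000204256.12). Its level was 144, 147 and 152 CPM in the 3 DMSO libraries, 182, 185 and 189 CPM at 5 µM, and 221, 239.8 and 239 CPM at 10 µM. The 3 groups did not overlap, and each step of dose lay above the last. BRD2 rose by a log2 fold change of 0.33 (SE 0.07) at 5 µM, with an adjusted p of 0.0113 by edgeR's quasi-likelihood test. At 10 µM the log2 fold change was 0.66 (SE 0.07, a fold of 1.58, adjusted p = 5.79e-05), and 10 µM stood 0.33 (SE 0.07) above 5 µM (adjusted p = 0.0142). The rise at 10 µM held under all 20 alternative settings, between 0.64 and 0.70. The call at 5 µM was lost, with adjusted p between 0.0503 and 0.0792, when any of the DMSO libraries, or 5 µM replicate 2 or 3, was left out, while the fold change stayed between 0.31 and 0.35. Of the exonic bases of BRD2, 8.61% overlap HLA-DMA and another gene on the opposite strand and 3.31% a gene on the same strand, and the sources used here do not say whether strand was used in counting.

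BRD3, the BET protein that also reads acetylated transcription factors such as GATA1, lies at chr9:134030305-134068535 on the minus strand (ENSG00000169925.16). Its level was 57.7, 58.9 and 59.0 CPM in DMSO, 49.0, 49.6 and 48.7 CPM at 5 µM, and 28.1, 40.2 and 37.3 CPM at 10 µM. The order was the reverse of that of BRD2, again with no overlap between any of the groups, and 10 µM replicate 1 was the lowest. At 5 µM the log2 fold change was -0.25 (95% interval -0.51 to 0.01), which did not pass the test with an adjusted p of 0.218. Without 10 µM replicate 1 in the fit, the same log2 fold change of -0.25 had an adjusted p of 0.000891, and with only the 5 µM and DMSO libraries fitted it was 0.000365. At 10 µM BRD3 fell by 0.73 on the log2 scale (SE 0.12, adjusted p = 0.00111), a call that held under all 20 alternatives with values from -0.85 to -0.60. BRD3 at 10 µM was also lower than at 5 µM, by -0.48 (SE 0.12, adjusted p = 0.0342), but leaving out any one DMSO or 5 µM library ended that call, with adjusted p from 0.0689 to 0.116. BRD3 shares 18.6% of its exonic bases with the antisense gene BRD3OS, and it was the only one of the 7 genes whose expected counts were fractional, in all 9 libraries.

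BRDT, the testis member of the BET family, was not among the 7 genes. It had 1 to 3 counts in each DMSO library and 0 counts in each treated library, and was not tested. The RPKM ratio of BRD2 to BRD3 was 2.34, 2.34 and 2.42 in the DMSO libraries, 3.48, 3.5 and 3.64 at 5 µM, and 7.38, 5.59 and 6.02 at 10 µM, so every treated library lay above every DMSO library and the doses did not overlap. BRD7 and BRD9, the targets of TP-472, did not pass the test at either dose. At 10 µM their log2 fold changes were -0.19 (95% interval -0.39 to -0.00, adjusted p = 0.111) for BRD7 and 0.27 (95% interval 0.03 to 0.51, adjusted p = 0.0763) for BRD9. With DESeq2, BRD9 passed at 10 µM and BRD7 did not.

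HEXIM1 lies at chr17:45148502-45152101 on the plus strand (ENSG00000186834.3). Its level was 163, 164 and 156 CPM in DMSO, 198, 188 and 189.7 CPM at 5 µM, and 178, 177 and 184 CPM at 10 µM. Every treated library lay above every DMSO library, and the 5 µM libraries lay above the 10 µM libraries. HEXIM1 rose by a log2 fold change of 0.25 (SE 0.06) at 5 µM, with an adjusted p of 0.0317 by edgeR's quasi-likelihood test. At 10 µM the log2 fold change of 0.16 (95% interval 0.02 to 0.30) missed the threshold with an adjusted p of 0.0753. The difference between the doses was -0.09 (95% interval -0.23 to 0.05, adjusted p = 0.390). The call at 5 µM was lost under 10 of 20 alternatives, among them leaving out any DMSO or 5 µM library (adjusted p 0.0851 to 0.168). With all libraries in, it was lost without the low-count filter (adjusted p = 0.0599) and with replicate number as a block (0.0705). At 10 µM it passed under 4 of the 20 alternatives. These were the fit without 10 µM replicate 1 (0.16, adjusted p = 0.00437) and DESeq2 (0.17, adjusted p = 0.0106). The others were upper-quartile factors (0.20, adjusted p = 0.0322) and a filter of 1 CPM in 3 libraries (0.18, adjusted p = 0.0389). An antisense gene overlaps 14.4% of its exonic bases.

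CDK9, the kinase of P-TEFb, lies at chr9:127785679-127790787 on the plus strand (ENSG00000136807.13). Its level was 78.3, 81.4 and 77.2 CPM in DMSO, 75.7, 81.2 and 72.7 CPM at 5 µM, and 87.0, 76.8 and 73.6 CPM at 10 µM. The groups overlapped, and the log2 fold change was -0.04 (95% interval -0.23 to 0.14) at 5 µM and 0.00 (95% interval -0.18 to 0.19) at 10 µM. CCNT1, the cyclin that activates CDK9, lies at chr12:48688458-48716998 on the minus strand (ENSG00000129315.10). Its level was 92.2, 94.4 and 100.1 CPM in DMSO, 89.6, 97.8 and 98.4 CPM at 5 µM, and 63.8, 98.8 and 107 CPM at 10 µM. The groups overlapped, with 10 µM replicate 1 far below the others. CCNT1 did not pass the test, at -0.00 (95% interval -0.36 to 0.35) at 5 µM and -0.09 (95% interval -0.44 to 0.27) at 10 µM. Without 10 µM replicate 1 the value at 10 µM turned to 0.11 (adjusted p = 0.135). The RPKM ratio of HEXIM1 to CDK9 was 1.74, 1.68 and 1.68 in DMSO, 2.18, 1.92 and 2.17 at 5 µM, and 1.71, 1.92 and 2.08 at 10 µM, where it overlapped DMSO.

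The rest of the P-TEFb and 7SK particle was read from the same fit. Of its 8 genes, 2 rose and none fell at each dose by edgeR's quasi-likelihood test. Of all genes, 4.40% rose and 5.81% fell at 5 µM, and 16.4% and 18.0% at 10 µM. Of the 8, 0 were lower at an unadjusted p under 0.05, by DESeq2 or by limma-voom. RN7SK, the 7SK RNA itself, had 3.00, 2.22 and 2.36 CPM in DMSO, 8.48, 5.38 and 4.25 CPM at 5 µM, and 32.2, 16.4 and 19.1 CPM at 10 µM. The groups did not overlap, and 10 µM replicate 1 was the highest. RN7SK rose by 1.25 (SE 0.31, adjusted p = 0.0328) at 5 µM and by 3.16 (SE 0.32, adjusted p = 6.91e-05) at 10 µM on the log2 scale, the largest changes in this group. The call at 10 µM held under all 20 alternatives (2.81 to 3.34), while that at 5 µM was lost under 7 of them, among them leaving out any DMSO library, 5 µM replicate 1 (0.93) or 5 µM replicate 2 (1.33). 7SK is made by RNA polymerase III, carries no poly(A) tail and has many near-identical copies in the genome, and the sources differ on whether the libraries were made by poly(A) selection or by depletion of ribosomal RNA, so its level is uncertain. MEPCE, which caps 7SK, rose by 0.25 (SE 0.07, adjusted p = 0.028) at 10 µM, a call lost under 7 alternatives, including leaving out any DMSO library (adjusted p 0.069 to 0.128). LARP7, which binds the 3′ end of 7SK, was at 0.35 (95% interval 0.03 to 0.67, adjusted p = 0.0861) at 10 µM and did not pass. HEXIM2, the paralog of HEXIM1, was at 0.00 (95% interval -0.30 to 0.31) and CCNT2, the other cyclin T, at -0.10 (95% interval -0.54 to 0.34), neither passing the test. The median log2 change of the 8 genes was 0.04 at 5 µM and 0.08 at 10 µM, beside 0.0054 and 0.0107 over all genes tested.

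Changes in the factors that work with P-TEFb were smaller than that of 7SK. In the super elongation complex, which carries P-TEFb to paused polymerase, 10 genes were tested. At 5 µM 1 rose, where 4.40% of all genes did. At 10 µM 4 rose and 1 fell, where 16.4% of all genes rose and 18.0% fell. The fit without 10 µM replicate 1 had 4 that rose and 2 that fell at 5 µM, and 6 and 2 at 10 µM. In that fit 16.5% of all genes rose and 17.6% fell at 5 µM, and 23.0% and 25.8% at 10 µM. EAF2, an ELL-associated factor, rose from 2.31, 1.73 and 2.01 CPM in DMSO to 4.48, 3.52 and 4.73 CPM at 10 µM (log2 fold change 1.07, SE 0.21, adjusted p = 0.00305). EAF1, ELL and ELL2 rose by 0.56, 0.42 and 0.30 at 10 µM, under 1.5-fold each, though EAF1 reached 1.55-fold without that library. MLLT1, a reader of acylated histones in the complex, fell by 0.58 (adjusted p = 0.000369). Among 16 pausing and elongation factors tested, 1 rose at 5 µM (4.40% of all genes did) and 5 rose and 1 fell at 10 µM (16.4% and 18.0% of all genes), none of them by 1.5-fold. Leaving out 10 µM replicate 1, 7 rose and 2 fell at 5 µM and 9 rose and 4 fell at 10 µM, again none by 1.5-fold. The median log2 changes at 10 µM were 0.16 for both groups, beside 0.0107 for all genes tested, and 0.35 and 0.23 without that library.

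**Figure D3:**
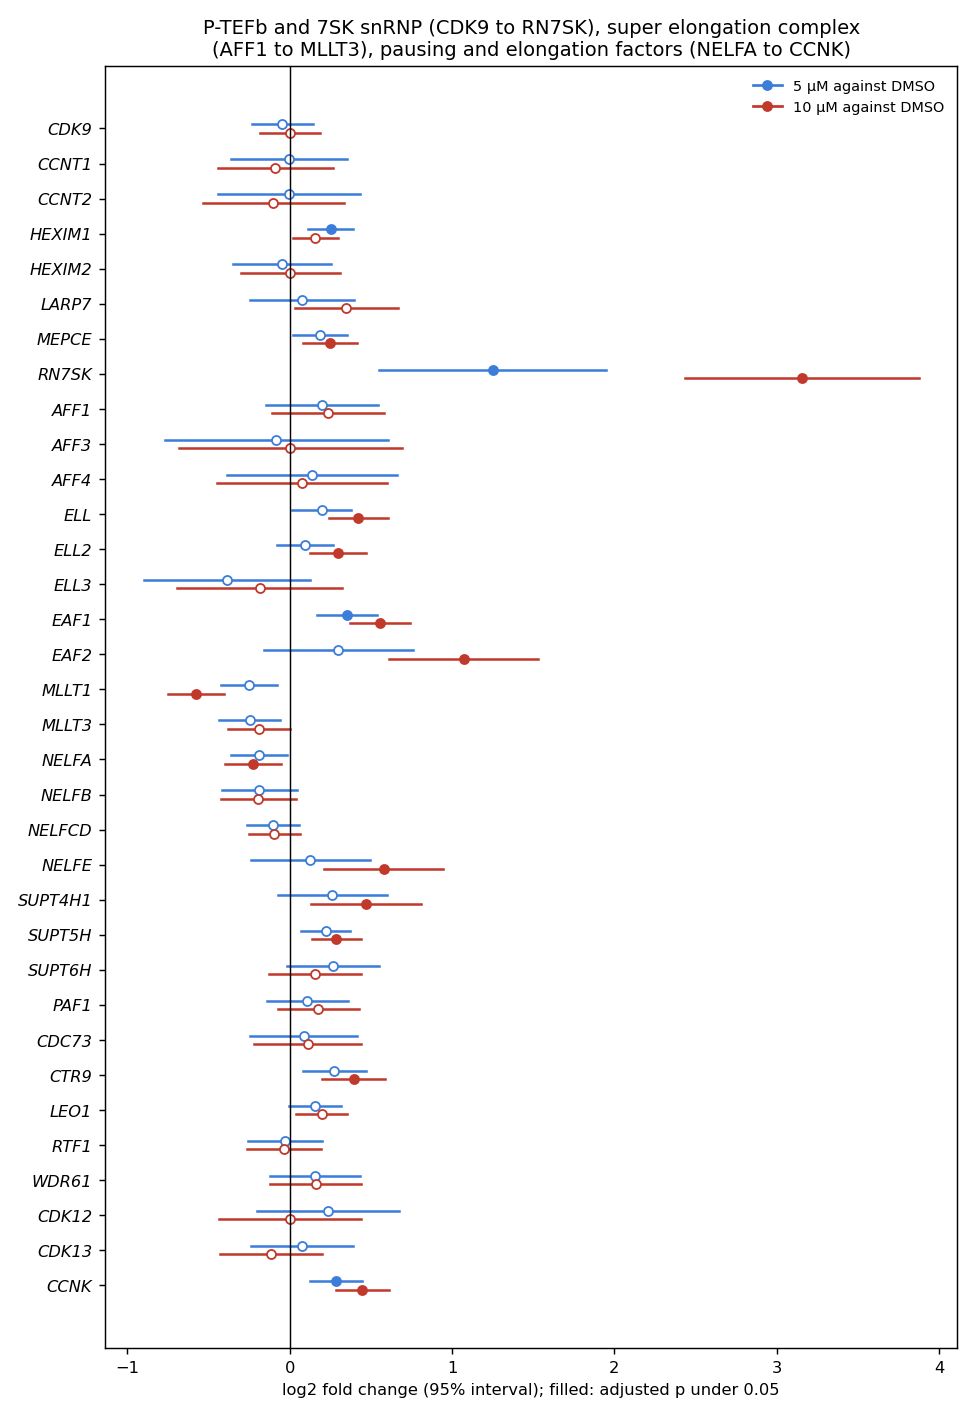
Log2 fold changes (x axis) of the tested genes of P-TEFb and the 7SK particle, of the super elongation complex and of pausing and elongation factors (y axis) at 5 µM and 10 µM TP-472 against DMSO. Points are edgeR estimates, lines 95% intervals, and filled points have an adjusted p under 0.05. RN7SK has the highest value at each dose, 1.25 and 3.16, and most intervals lie within 1 log2 unit of 0.

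SERPINI1 lies at chr3:167735243-167825568 on the plus strand (ENSG00000163536.12). Its level was 2.46, 2.45 and 1.94 CPM in DMSO, 4.45, 3.80 and 4.97 CPM at 5 µM, and 8.08, 4.59 and 4.42 CPM at 10 µM. Every treated library lay above every DMSO library, while the doses overlapped, and 10 µM replicate 1 was the highest of all. SERPINI1 rose 1.93-fold at 5 µM (log2 fold change 0.95, SE 0.26, adjusted p = 0.0432) and 2.49-fold at 10 µM (1.32, SE 0.26, adjusted p = 0.00322) by edgeR's quasi-likelihood test. Without 10 µM replicate 1 the log2 change at 10 µM was 0.98 (adjusted p = 0.000862), and the call held under all 20 alternatives. The call at 5 µM was lost when any DMSO or 5 µM library was left out, with adjusted p from 0.0802 to 0.175. With all libraries it was also lost by limma-voom (adjusted p = 0.0825) and by edgeR with replicate number as a block (adjusted p = 0.0528). The difference between the doses was 0.37 (95% interval -0.18 to 0.93, adjusted p = 0.389), and 0.03 without 10 µM replicate 1.

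MYC lies at chr8:127735434-127741434 on the plus strand (ENSG00000136997.17). Its level was 14.8, 13.7 and 14.7 CPM in DMSO, 10.6, 13.2 and 12.7 CPM at 5 µM, and 18.6, 20.0 and 14.4 CPM at 10 µM. All 5 µM libraries lay below all DMSO and all 10 µM libraries, and the 10 µM libraries overlapped those of DMSO through replicate 3. MYC did not pass the test against DMSO at 5 µM (log2 fold change -0.25, 95% interval -0.55 to 0.06, adjusted p = 0.315) or at 10 µM (0.29, 95% interval -0.01 to 0.59, adjusted p = 0.123). The estimate was below 0 at 5 µM and above 0 at 10 µM, and it reached 0.42 at 10 µM without 10 µM replicate 3 (adjusted p = 0.023).

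Between the doses, 2 of the 7 genes were higher at 10 µM than at 5 µM, against 2.87% of all genes tested, and 1 was lower, against 5.53%. These were BRD2 and BRD3, given above, and MYC, which was higher at 10 µM by a log2 fold change of 0.54 (SE 0.14, adjusted p = 0.0387). The call for MYC was lost when any DMSO or 5 µM library or 10 µM replicate 2 was left out (adjusted p 0.0756 to 0.142). That for BRD2 was lost without any 5 µM library (adjusted p 0.0614 to 0.0741). Fitted on the 6 treated libraries alone, none of the 7 genes passed, with adjusted p of 0.101 for BRD2, 0.159 for BRD3 and 0.138 for MYC. Libraries of the doses did not overlap for 4 of the 7 genes, namely BRD2, BRD3, HEXIM1 and MYC, where 28.3% of all genes tested did not overlap.

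The wider lists of genes known to respond to BET inhibitors hold SERPINI1, HEXIM1 and MYC as members and share the DMSO libraries between doses. They were written from general knowledge of other cell systems, with no source given for the direction of each gene. Of the 10 genes listed as known to rise, 7 rose and 2 fell at each dose. Of all genes, 4.40% rose and 5.81% fell at 5 µM, and 16.4% and 18.0% at 10 µM. Of these 10, 6 are histone genes, of which 5 rose at 5 µM and 6 at 10 µM. Of the 4 others, 2 rose and 2 fell at 5 µM, and 1 rose and 2 fell at 10 µM, with median log2 changes of -0.12 and -0.38, beside 1.53 and 2.12 for the histone genes. The median log2 change of all 10 was 1.02 at 5 µM and 1.63 at 10 µM, beside 0.0054 and 0.0107 over all genes tested. Core histone genes led the rises. Most core histone transcripts end without a poly(A) tail, and, as for 7SK, the doubt about how the libraries were made touches their levels. HIST2H2BE, an H2B gene, had 4.81, 5.31 and 6.29 CPM in DMSO, 17.2, 19.5 and 19.4 CPM at 5 µM, and 28, 25.1 and 22.7 CPM at 10 µM, with log2 changes of 1.78 (SE 0.13, adjusted p = 4.2e-05) and 2.21 (SE 0.13, adjusted p = 1.94e-06). Every treated library exceeded every DMSO library, and both calls held under all 20 alternatives. HIST1H2BK rose by 1.62 and 2.15, HIST1H2BD by 1.45 and 2.08, HIST2H2BF by 1.09 and 1.65, and HIST2H4A by 0.93 and 1.62 at 5 µM and 10 µM on the log2 scale. HIST1H2BJ, at 0.0940 CPM in DMSO, passed only at 10 µM in these tests (2.81, SE 0.63, adjusted p = 0.00664). Expected counts of the 5 H2B genes were fractional in at least 8 of the 9 libraries, and those of HIST2H4A were identical to those of its copy HIST2H4B in all 9, so the reads of near-identical genes were split and single histone genes are uncertain.

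Both genes of the list that fell did so at both doses. ZCCHC24, a zinc finger gene used as a marker of BET inhibition, had 170.1, 174 and 168 CPM in DMSO, 95.5, 97.6 and 97.0 CPM at 5 µM, and 51.5, 54.4 and 54.2 CPM at 10 µM. The 3 groups lay far apart. By edgeR's quasi-likelihood test it fell by 0.82 (SE 0.06, adjusted p = 5.94e-05) at 5 µM on the log2 scale. At 10 µM it fell by 1.68 (SE 0.06, adjusted p = 1.72e-07), and both falls held under all 20 alternatives. The list has ZCCHC24 and ZMYND8 as rising, a direction that was not checked against a published source. ZMYND8, which encodes a bromodomain protein that reads acetylated histones, had 205, 202 and 205 CPM in DMSO, 141, 147 and 149 CPM at 5 µM, and 91.5, 115 and 115 CPM at 10 µM. It fell by 0.49 (adjusted p = 0.00888) and 0.93 (adjusted p = 5.79e-05), and the groups did not overlap. Its call at 5 µM was lost without 5 µM replicate 1 (adjusted p = 0.0519) and with the 1.5-fold condition, and that at 10 µM held under all 20 alternatives.

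Of the 13 genes listed as known to fall under BET inhibition, 10 were tested, since CCR1, CCR2 and CD180 had 0 to 13 counts per library. At 5 µM 1 fell, and at 10 µM 6 fell, where 5.81% and 18.0% of all genes did. When 10 µM replicate 1 was left out, 6 fell at each dose, where 17.6% and 25.8% of all genes did. None rose against DMSO at either dose by edgeR's quasi-likelihood test, where 4.40% and 16.4% of all genes rose. Likewise 0 were higher at an unadjusted p under 0.05, by DESeq2 or by limma-voom. The median log2 change was -0.26 at 5 µM and -0.44 at 10 µM, beside 0.0054 and 0.0107 over all genes tested. E2F2, a cell cycle transcription factor, had 7.53, 8.66 and 7.16 CPM in DMSO and 1.94, 3.40 and 2.61 CPM at 10 µM, a fall by 1.55 on the log2 scale (SE 0.21, adjusted p = 0.00043). SPP1, the matrix protein osteopontin, had 19.6, 20.3 and 20.0 CPM in DMSO, 11.1, 8.79 and 7.78 CPM at 5 µM, and 16.8, 13.5 and 13.9 CPM at 10 µM. It fell by 1.12 (adjusted p = 0.00101) at 5 µM and by 0.44 (adjusted p = 0.0331) at 10 µM, and was higher at 10 µM than at 5 µM by 0.68 (adjusted p = 0.0168), as MYC was. The survival gene BCL2 fell by 0.65, the cell cycle kinase gene CDK6 by 0.52 (-0.34 without 10 µM replicate 1), the adhesion gene AMIGO2 by 0.44 and the cytokine receptor gene IL7R by 0.39 at 10 µM. FOSL1, an AP-1 subunit gene that falls under BET inhibitors in some cancers, was at 0.16 at 10 µM (95% interval -0.00 to 0.33, adjusted p = 0.122) and did not pass. At 5 µM it did not pass either. All 5 µM libraries of FOSL1, at 321, 315 and 314 CPM, lay below all DMSO and all 10 µM libraries. Without 10 µM replicate 1 in the edgeR fit it passed as a fall at 5 µM (-0.12, adjusted p = 0.0434). MYB, at -0.88 (95% interval -1.83 to 0.07), and TERT, at -0.29 (95% interval -0.88 to 0.30), did not pass at 10 µM.

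**Figure D4:**
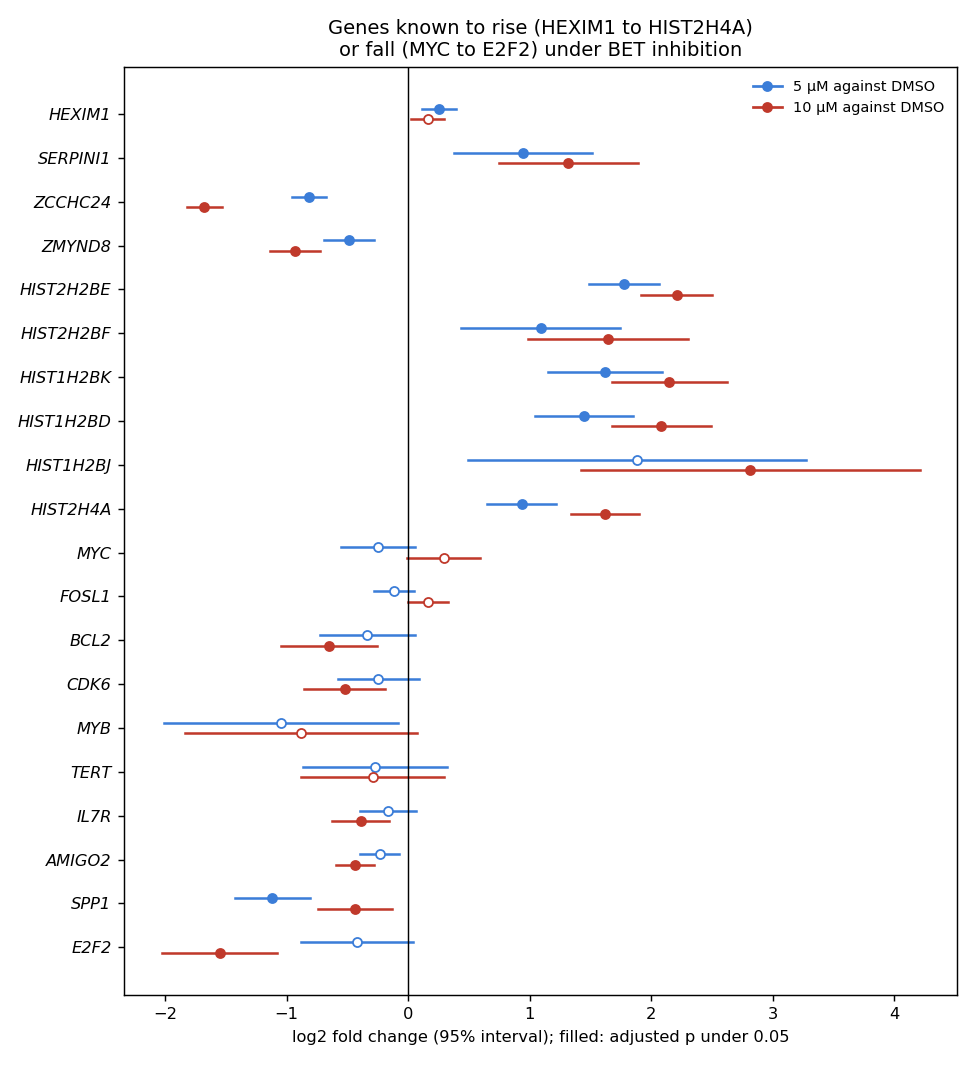
Log2 fold changes (x axis) at 5 µM and 10 µM TP-472 against DMSO of tested genes (y axis). These are the genes listed, from general knowledge, as rising (HEXIM1 to HIST2H4A) or falling (MYC to E2F2) under BET inhibition. Points are edgeR estimates, lines 95% intervals, and filled points have an adjusted p under 0.05. The histone genes and SERPINI1 lie to the right of 0, ZCCHC24 at -0.82 and -1.68 and ZMYND8 to the left, and MYC has open points on either side of 0.

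MYC works as a dimer with MAX, against repressors of the MXD family and MNT, which compete for MAX. Of 13 genes of this network tested, 1 rose and 2 fell at 5 µM, and 2 rose and 4 fell at 10 µM, where 4.40% of all genes rose and 5.81% fell at 5 µM, and 16.4% and 18.0% at 10 µM. With 10 µM replicate 1 left out, 3 rose and 4 fell at 5 µM, where 16.5% of all genes rose and 17.6% fell. MXD1 rose from 8.91, 9.81 and 10.1 CPM under DMSO to 18.2, 18.8 and 15.1 CPM at 5 µM and 17.1, 23.7 and 25.9 CPM at 10 µM (log2 changes 0.85 and 1.21, adjusted p = 0.00806 and 0.000316). MAX rose by 0.37 at 10 µM. MXI1 fell by 0.64 and 0.79 and MXD3 by 0.83 and 0.95 at the 2 doses, and MNT fell by 0.48 at 10 µM. MYCN, the paralog of MYC, had 220 counts over all libraries together and 0 counts in 10 µM replicate 1, and passed at 10 µM (adjusted p = 0.00818), lower in all 3 libraries than in any DMSO library.

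Of 52 genes known as MYC targets, 2 rose and 4 fell at 5 µM, and 22 rose and 9 fell at 10 µM, with median log2 changes of 0.09 and 0.28. Of all genes, 4.40% rose and 5.81% fell at 5 µM, and 16.4% and 18.0% at 10 µM. The counts at 5 µM depended on the fit, with 11 higher and 6 lower by DESeq2, and 21 and 10 by edgeR without 10 µM replicate 1. Of all genes, 1213 of 16417 were higher and 1463 lower by DESeq2, and 16.5% and 17.6% without that library. At 10 µM the counts without that library were 24 and 15, where 23.0% of all genes rose and 25.8% fell. The median log2 change was then 0.09. With the 1.5-fold condition the counts at 10 µM were 5 and 3 with all libraries, where 8.57% and 10.5% of all genes passed, and 4 and 4 without that library. AIMP2, a scaffold of the tRNA synthetase complex, rose by 0.93, and the ribosome assembly genes RCL1 and RRP9 by 0.85 and 0.77 at 10 µM, with NDUFAF4, an assembly factor of respiratory complex I, at 0.67. These 4 values without 10 µM replicate 1 were 0.66 for AIMP2, 0.80 for RCL1, 0.49 for RRP9 and 0.39 for NDUFAF4, and the latter pair then lay under 1.5-fold, though all 4 still passed the test. The replication helicase genes MCM5 and MCM4 fell by 1.2 and 0.79 and the hexokinase gene HK2 by 0.63 (-0.49, under 1.5-fold, without that library).

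**Figure D5:**
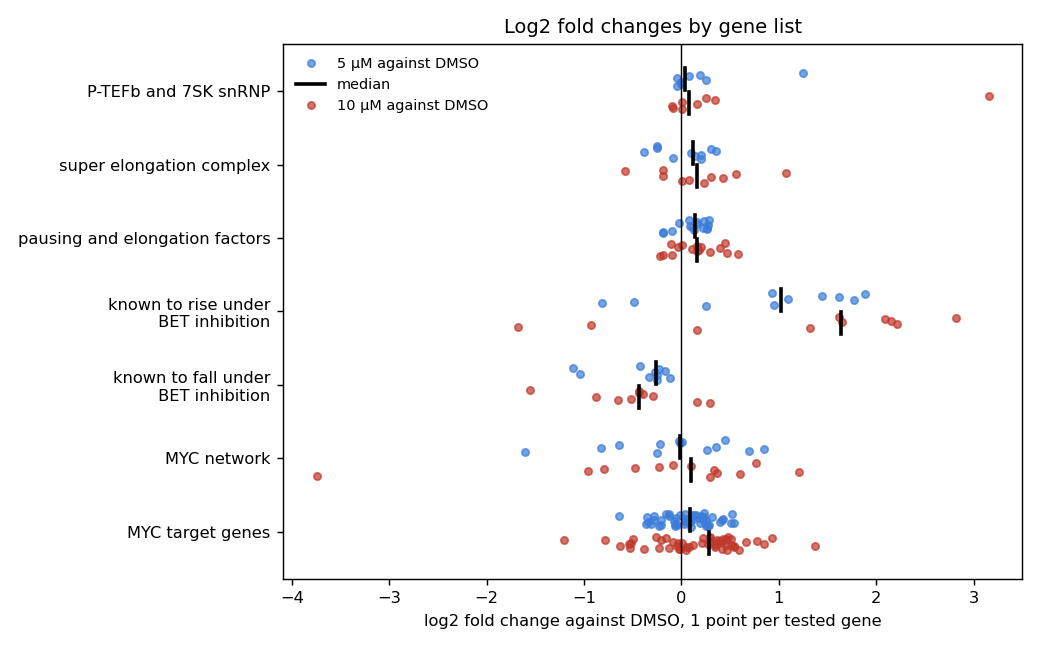
Log2 fold changes (x axis) of all tested genes in 7 lists (y axis) at 5 µM and 10 µM TP-472 against DMSO. Each point is a gene and each black bar the median of a list. The list given, from general knowledge, as rising under BET inhibition has medians of 1.02 and 1.63 with ZCCHC24 and ZMYND8 far to the left. The medians of the P-TEFb and MYC lists lie within 0.3 of 0.

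Genes whose levels followed the same course were found by Pearson's correlation of log2 CPM over the 9 libraries among 13677 tested genes whose mean reached 1 CPM. The 9 points share the 3 groups and 10 µM replicate 1, so the values are a description. The closest to HEXIM1 were CEP164 (r = 0.971), EID2 (0.959) and SLC6A17 (0.957). The closest to MYC were GMEB2 (0.961), SPATA24 (0.933) and JDP2 (0.933). The closest to SERPINI1 were HYPK (0.986), PRKAG1 (0.984) and AK1 (0.983).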

How the data were processed

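RNA from 9 A375 cultures was sequenced, 3 per group. The authors deposited expected counts per gene symbol from RSEM, without scaling to library size. The submitters' processing notes name RSEM 1.2.15, Bowtie2 2.1.0 and hg38. The sources used here name neither the annotation nor the strand setting. Expected counts were rounded to whole numbers. In R 4.3.3, edgeR 4.0.16 fitted all 3 groups with TMM factors, filterByExpr and the quasi-likelihood test, with Benjamini-Hochberg adjustment over 16417 genes and no covariate. The paper states a general test for its experiments and none for these counts in particular. SE is the size of the log2 fold change over the square root of F, and intervals are 95% from the t distribution. Limma 3.58.1 (voom) and DESeq2 1.42.0 served as alternatives. Gene coordinates, overlaps and exon lengths are from GENCODE 29 on GRCh38, and promoter sequences from RefSeq (GRCh38.p14). The test was checked on simulated counts.

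Named genes are the 7 genes, other BET family genes, the targets of TP-472, and the genes of P-TEFb and 7SK. Also named is every gene measured of those listed as known to rise or fall under BET inhibition. From the other lists, genes past 1.5-fold are named, at most 4 per direction. EAF1, ELL, ELL2, MLLT1, MAX and MNT fell outside this rule and were chosen after their values were seen. The genes and lists were chosen with earlier results of these data known. Replicate numbers did not pair the libraries, so no block was used. The libraries within a group differed by more than sampling noise. Results for 2 genes are not reported here.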

Additional observations from a re-analysis of the deposited data

How the results depend on the processing

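Against DMSO at 10 µM, BRD2, BRD3 and SERPINI1 passed under all 20 alternatives, and no alternative turned the direction of a gene of the 7 that passed. Values that changed sign were those of genes that did not pass. Without 10 µM replicate 1, CCNT1 went to 0.11 against DMSO and to 0.11 against 5 µM, and CDK9 to -0.03 against 5 µM. Leaving out 1 library at a time put CCNT1 between -0.23 and 0.11 in both of its comparisons at 10 µM, and CDK9 at 10 µM against 5 µM between -0.03 and 0.1.

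The counts below are of the 7 genes, or of the 124 tested genes of the related lists. These 124 had 12 higher and 9 lower at 5 µM, 45 and 24 at 10 µM, and 8 and 7 at 10 µM against 5 µM. Of all 16417 genes tested, 722 were higher and 954 lower at 5 µM, and 2687 and 2947 at 10 µM. Between the doses these were 471 and 908. Leaving out 1 library at a time gave 0 to 3 of the 7 genes higher and 0 to 1 lower at 5 µM, 2 to 3 higher and 1 lower at 10 µM, and 0 to 2 higher and 0 to 1 lower between the doses. For the related genes it gave 6 to 45 higher and 5 to 27 lower at 5 µM, 30 to 53 and 16 to 35 at 10 µM, and 3 to 29 and 3 to 16 between the doses. The highest of these counts of related genes came without 10 µM replicate 1. Over all genes, 16745 to 16887 tested, it gave 263 to 2770 higher and 410 to 2951 lower at 5 µM. At 10 µM it gave 1645 to 3854 and 2127 to 4316, and between the doses 146 to 1474 and 388 to 2576. The highest of these also came without 10 µM replicate 1. DESeq2 gave 24 related genes higher and 14 lower at 5 µM and 19 higher between the doses. Of all 16417 genes it had 1213 higher and 1463 lower at 5 µM and 1080 higher between the doses. Fits of only the groups compared gave 1 of the 7 genes lower at 5 µM and 0 higher and 0 lower between the doses, with 48 related genes higher and 29 lower at 5 µM and 1 and 2 between the doses. With the 1.5-fold condition, 1 of the 7 genes was higher at 5 µM and 0 higher or lower between the doses, with 5 related genes lower at 5 µM, 16 higher and 10 lower at 10 µM, and 4 and 2 between the doses. At an adjusted p under 0.01, 0 of the 7 were higher at 5 µM and 0 higher or lower between the doses, with 7 related genes higher at 5 µM and 3 and 3 between the doses. In the fits of only the groups compared, 3051 of 15849 genes were higher and 3280 lower at 5 µM. Between the doses 114 of 16005 were higher and 221 lower. With the 1.5-fold condition, 352 of 16417 genes were higher and 447 lower at 5 µM, and 1407 and 1730 at 10 µM. Between the doses these were 233 and 425. At an adjusted p under 0.01, 274 were higher at 5 µM, and 125 higher and 327 lower between the doses. The cause of these shifts was not tested. Libraries of the same replicate number did not deviate together (r from -0.049 to 0.032 over 9 pairs of libraries, 0 of them over 0.1, against -0.033 to 0.045 for other pairs), so they share only a number. The replicate block left 1 of the 7 genes higher at 5 µM and 1 between the doses, where 522 and 301 of 16417 genes were higher. Leaving out genes of ribosomal RNA was added after the data were seen and changed no call of the 7 genes. SERPINI1, with 82 to 391 counts per library, had the widest intervals of the 7 genes.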

Other observations

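Genes that lie beside the 7 genes on the chromosome were read from the same fit. Of 10 neighbours tested, 1 rose at 5 µM, and 4 rose and 1 fell at 10 µM, where 4.40% of all genes tested rose at 5 µM, and 16.4% rose and 18.0% fell at 10 µM. In the fit without 10 µM replicate 1, 3 rose and 1 fell at 5 µM, and 4 rose and 2 fell at 10 µM. Of all genes in that fit, 16.5% rose and 17.6% fell at 5 µM, and 23.0% and 25.8% at 10 µM. PVT1, the long noncoding RNA gene that starts 53098 bases after MYC, had 2.92, 3.46 and 3.45 CPM in DMSO, 3.42, 5.93 and 5.67 CPM at 5 µM, and 8.61, 6.81 and 7.66 CPM at 10 µM. It rose at 10 µM by a log2 fold change of 1.23 (SE 0.22, adjusted p = 0.00187), and all 10 µM libraries lay above the others, while MYC itself did not pass. PDCD10, which lies 303 bases from SERPINI1 on the opposite strand, was at 0.12 (95% interval -0.09 to 0.33) at 10 µM and did not pass. HLA-DOA, beside BRD2, rose by 1.63 (adjusted p = 0.00202) at 5 µM and by 1.08 (adjusted p = 0.00513) at 10 µM, and HLA-DMA, which overlaps BRD2 on the other strand, rose by 0.43 (adjusted p = 0.0354) at 10 µM, and by 0.25 without that library. KANSL2, near CCNT1, rose by 0.58 (adjusted p = 0.00277) and FPGS, near CDK9, fell by 0.30 (adjusted p = 0.0274) at 10 µM. HEXIM2, 8598 bases from HEXIM1, WDR5, ADCY6 and SH2D3C did not pass at either dose, although ADCY6 passed at 10 µM without that library (-0.17, adjusted p = 0.0209).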
